A study of Rattus norvegicus with 12 samples.

Results

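The responses of small RNAs in rat serum exosomes to a pair of testicular toxicants were set against each other. For each small RNA, the log2 change after ethylene glycol monomethyl ether (EGME) against water was reduced by the log2 change after CBZ against corn oil. A difference above 0 means that the small RNA stood higher, relative to its own vehicle, after EGME than after CBZ. Members were all mature miRNAs and piRNAs named in both tables of raw counts. These were 400 (318 miRNAs and 82 piRNAs) of the 1596 miRNAs and piRNAs (436 and 1160) named in either table, and of 3655 features of all RNA classes. Of the 400 members, 160 had enough counts to be tested (139 miRNAs and 21 piRNAs), and 240 were not tested.

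All 12 libraries came from male Sprague-Dawley rats aged 9 weeks, dosed orally a single time and bled 24 h later. EGME was given at 2000 mg/kg in 10 mL/kg of water and CBZ, an abbreviation the labels leave unexplained, at 400 mg/kg in 5 mL/kg of corn oil. The water and oil groups received the vehicle alone, so no group was left undosed, and each of the 4 groups had 3 libraries. The toxicants were given in different vehicles, at different doses and volumes, and were counted in separate tables, so the difference compares responses and not levels, and the compound, dose and vehicle cannot be told apart. The labels do not say that each library came from its own rat, and p-values therefore reflect the spread among libraries, which may be technical. Vesicles were pelleted by ultracentrifugation. The deposited small RNA counts hold no protein or mRNA marker by which the exosome label could be checked.

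MicroRNAs are short RNAs that guide Argonaute proteins to messenger RNAs, mainly through their seed, the bases 2 to 8 from the 5′ end, and repress them. They are cut from both arms of a hairpin, named 5p and 3p. In serum they travel in vesicles and in protein complexes, and those most abundant in blood come largely from blood cells, with the liver and other tissues adding their own. PIWI-interacting RNAs (piRNAs) silence transposons in germ cells, while RNAs that carry piRNA names in blood can also be fragments of other transcripts. EGME is oxidised to methoxyacetic acid, which kills spermatocytes in rats.

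The mature sequences below are those of the miRNAs among the 20 members with the smallest p for the difference, and of miRNAs that passed the test under either toxicant. miR-192-5p stands beside its relative miR-215. They were taken from RefSeq (build GRCr8), and capitals mark the seed. miR-486, miR-455-5p, miR-150-3p and miR-151-3p belong to the same set and are named only.
miR-3559-3p: aUGUAGUAcugagucugucgug
miR-223-3p: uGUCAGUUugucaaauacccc
miR-185-5p: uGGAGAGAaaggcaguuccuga
miR-451-5p: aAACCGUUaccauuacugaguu
miR-215: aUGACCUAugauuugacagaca
miR-192-5p: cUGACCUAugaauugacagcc
miR-143-3p: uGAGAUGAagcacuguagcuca
miR-181a-5p: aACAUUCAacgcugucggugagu
miR-455-3p: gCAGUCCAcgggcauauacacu
miR-149-5p: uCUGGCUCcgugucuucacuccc
miR-27a-5p: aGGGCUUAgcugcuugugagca
miR-425-5p: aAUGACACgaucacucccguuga
miR-378a-3p: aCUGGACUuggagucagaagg
miR-19a-3p: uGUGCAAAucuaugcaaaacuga
miR-10a-5p: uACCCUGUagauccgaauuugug
miR-423-5p: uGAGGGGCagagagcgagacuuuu
miR-93-5p: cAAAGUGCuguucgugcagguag
Of the 139 tested miRNAs, 124 matched 1 RefSeq sequence. miR-215 and miR-192-5p hold the same seed, UGACCUA, and are encoded on chromosomes 13 and 1.

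Depth was low and unequal. Water and EGME libraries held 608892 to 1235814 assigned counts each, and oil and CBZ libraries 196460 to 598200, of which 74581 to 312925 fell on the 400 members. Levels are given as CPM, member counts brought to 1 common library size with TMM scaling. On that scale 3 counts, the most that a count of 0 allows, equal 8.75 to 38.5 CPM depending on the library. These floors cover counting error only, as the reads carry no molecular identifiers. Oil library 1 stood apart, with 65.1% of its member counts on piRNAs against 20.0% to 44.4% in the other 11 libraries. Oil library 2 was the shallowest, with 74581 member counts.

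No small RNA passed the test for a difference between the toxicants. In edgeR's quasi-likelihood test over all 12 libraries, 0 of 160 members (0%) had an adjusted p under 0.05, and the lowest adjusted p was 0.163. An unadjusted p under 0.05 was reached by 16 members (10%), with the EGME effect above the CBZ effect in 6 (3.75%) and below it in 10 (6.25%). DESeq2's Wald test called 2, piR-64201 and miR-486, and limma called 0, with 15 at an unadjusted p under 0.05. Without oil library 1, edgeR called 5, namely piR-64201, miR-215, miR-3559-3p, miR-148a-3p and miR-151-3p. Without water library 1 it called 1, piR-64201.

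The difference ranged from -2.75 to 2.54 on the log2 scale with a median of 0.01, and its median absolute size was 0.40. The median standard error (SE) was 0.50 and the median 95% interval reached 1.06 to either side. For most members a difference of 1 log2 unit could thus not be told from 0. The median reach was 0.97 for miRNAs and 1.67 for piRNAs. By abundance it was 0.82 for the top 40 members, 0.78 for the next 40, then 1.19, and 1.66 for the scarcest 40. The interval lay wholly within 1 log2 unit of 0 for 26 members (16.2%), all of them miRNAs. Of the 40 most abundant members 11 were among them, and of the next 40, 13. For those 26 a difference beyond 1 log2 unit lay outside the interval. Of these, miR-30e-3p, of the miR-30 family, had the difference 0.04 (95% interval -0.54 to 0.62).

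**Figure D1:**
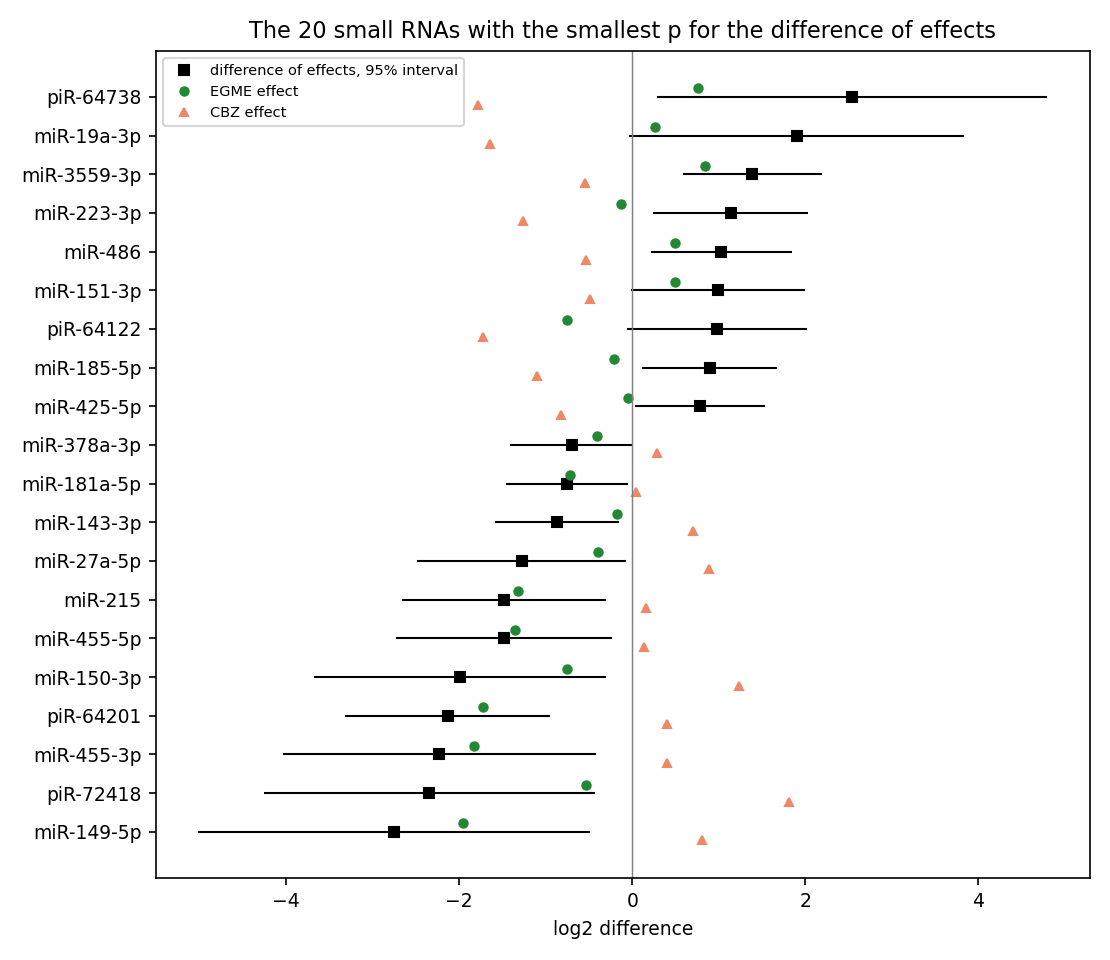
Difference of effects (log2, squares with 95% intervals) for the 20 members with the smallest p, with the EGME effect (circles) and the CBZ effect (triangles) beside it. The intervals of 16 exclude 0, and the lowest adjusted p is 0.163.

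The effects of the toxicants had the same sign in 107 of 160 members (66.9%). Both lay above 0 in 48 and both below 0 in 59, while 23 were above 0 after EGME and below 0 after CBZ and 30 the reverse. These signs hold for TMM scaling and depend on it. With no scaling beyond library totals the median CBZ effect moved from -0.06 to 0.44, and the median EGME effect from -0.12 to -0.08. Across the 139 miRNAs the effects had a Pearson correlation of 0.37 and a Spearman correlation of 0.39, and across the 21 piRNAs -0.09 and -0.11. These describe features that share libraries and are not independent replicates. Treated and vehicle libraries did not overlap for 32 members under EGME (20%) and for 51 under CBZ (31.9%). They did not overlap under either toxicant for 12. For 11 of these (6.88%) the direction was the same, and for 1 (0.625%), miR-3559-3p, it was opposite.

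**Figure D2:**
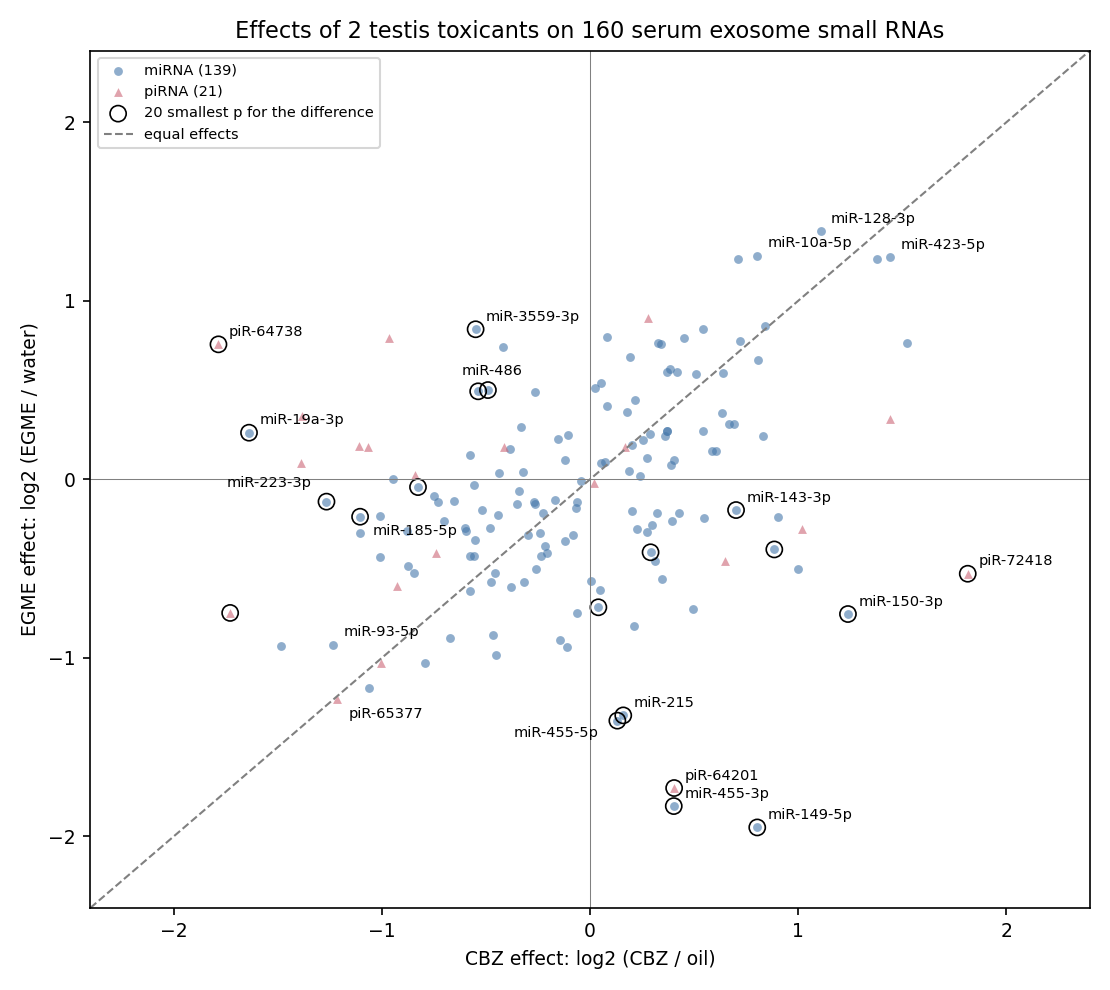
Effect of CBZ against oil (x axis, log2) and of EGME against water (y axis, log2) for the 160 tested members, with miRNAs as circles, piRNAs as triangles, the 20 smallest p ringed and a dashed line where the effects are equal. The effects share a sign in 107 of 160, and miR-3559-3p lies above 0 for EGME and below 0 for CBZ.

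miR-3559-3p, encoded on chromosome X, had 177, 158 and 187 CPM (water), 382, 264 and 292 (EGME), 180.4, 256 and 238 (oil) and 165, 127 and 164 (CBZ). All 3 EGME libraries lay above all 3 water libraries, and all 3 CBZ libraries lay below all 3 oil libraries. Its EGME effect was 0.84, its CBZ effect -0.55, and the difference was 1.39 (SE 0.38, 95% interval 0.59 to 2.19, edgeR adjusted p = 0.163). The other arm of its hairpin, miR-3559-5p, had a difference of 0.47 (95% interval -0.68 to 1.61), with effects of -0.23 and -0.70. Both effects of the 5p arm thus lay below 0, and the arms were not tested against each other.

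Among miRNAs of red blood cells, miR-486, which is made in maturing erythroid cells, was the most abundant, with 38246, 44309 and 50378 CPM (water), 62302, 75041 and 49705 (EGME), 48884, 38800.5 and 46489 (oil) and 29674, 32259.8 and 30509.9 (CBZ). The EGME libraries lay in or above the water range, while the CBZ libraries all lay below the oil libraries. Its difference was 1.03 (SE 0.39, 95% interval 0.21 to 1.85, edgeR adjusted p = 0.339), from effects of 0.49 and -0.54. In the DESeq2 Wald test the same difference was 1.07, with an adjusted p of 0.0150, and over the 25 alternatives run the adjusted p ranged from that value to 0.640.

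miR-451-5p, an erythroid miRNA that is processed by Argonaute 2 in place of Dicer, had 10470.2, 12702 and 10351 CPM (water), 10074, 8130.3 and 6550.4 (EGME), 5126, 4717 and 8029.8 (oil) and 2773, 3340.0 and 2793 (CBZ). Treated libraries lay below vehicle libraries under both toxicants. It fell by 1.01 under CBZ (SE 0.25, edgeR adjusted p = 0.0300), its EGME effect was -0.44 (SE 0.25, edgeR adjusted p = 0.339), and its difference was 0.57 (95% interval -0.18 to 1.32), or 0.26 without oil library 3. miR-185-5p, found in red blood cells, had 756, 836 and 592 CPM (water), 683, 763 and 449 (EGME), 1197, 1064 and 1623 (oil) and 768, 527 and 516 (CBZ). It overlapped between EGME and water and fell by 1.10 under CBZ (edgeR adjusted p = 0.0300), with a difference of 0.90 (SE 0.37, 95% interval 0.12 to 1.67, edgeR adjusted p = 0.360). miR-144-3p, transcribed with miR-451, had a difference of 0.80 (95% interval -0.32 to 1.93), which was 0.25 without oil library 1. The other arm, miR-144-5p, had a difference of 0.13.

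Of the 14 tested members of the red blood cell list, 11 had a difference above 0, against 81 of all 160 (50.6%), and the list's median difference was 0.54 against 0.01. The 3 below 0 were miR-16-5p at -0.24, miR-15b-5p at -0.21 and miR-92a-3p at -0.10. The highest was miR-182 at 1.16 (95% interval -0.34 to 2.66). Both arms of miR-144 and of miR-15b are among the 14, and miR-144 is transcribed with miR-451, so the 14 are not independent. At an unadjusted p under 0.05 stood 2 of the 14, both above 0, against 6 of all 160 members (3.75%) on that side. The median effect was -0.26 under EGME and -0.55 under CBZ. Summed over the list, the level was 70124 to 85977 CPM in water, 80620 to 111296 in EGME, 59284 to 77180 in oil and 48406 to 54653 in CBZ libraries, most of it miR-486. In serum, fewer cells that release a miRNA and less of it released per cell cannot be told apart, and rupture of red cells during collection was not tested. Scaling by library totals alone moved the median of all members to -0.42, and the list then stood at 0.10, or 0.53 above that median, as in the main scaling. Left out in turn, single libraries moved the list's median between 0.28, without oil library 3, and 0.70.

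miR-223-3p, a miRNA of granulocytes and monocytes, had 1342, 1422 and 997 CPM (water), 772, 1613 and 1065 (EGME), 1107, 1474 and 2191 (oil) and 565, 633 and 792 (CBZ). EGME and water libraries overlapped, and the CBZ libraries all lay below the oil libraries. It fell by 1.27 under CBZ (edgeR adjusted p = 0.0300), its EGME effect was -0.13, and the difference was 1.14 (SE 0.42, 95% interval 0.25 to 2.04, edgeR adjusted p = 0.339). The 5p arm had a difference of 0.38 (95% interval -0.53 to 1.28).

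The differences of miR-181a-5p, miR-150 and miR-342-3p lay below 0. miR-181a-5p, a miRNA of thymocytes that tunes T cell receptor signalling, had 681, 574 and 775 CPM (water), 462, 415 and 359 (EGME), 927, 538 and 757 (oil) and 704, 913 and 687 (CBZ). The EGME libraries all lay below the water libraries, and CBZ and oil libraries overlapped. Its difference was -0.76 (SE 0.33, 95% interval -1.46 to -0.05, edgeR adjusted p = 0.410). miR-150, abundant in mature lymphocytes, had differences of -0.76 (95% interval -1.66 to 0.14) for the 5p arm and -1.99 (95% interval -3.68 to -0.31) for the scarce 3p arm. miR-150-3p ranged from 24.2 to 57.9 CPM in water, 14.6 to 39.9 in EGME, 12.8 to 18.3 in oil and 32.0 to 46.9 in CBZ libraries, so the CBZ libraries lay above the oil libraries at a few counts each. No oil library exceeded its floor of 3 counts, so the CBZ effect and the difference of this arm rest on few counts. miR-342-3p, another lymphocyte miRNA, had a difference of -1.22 (95% interval -2.55 to 0.12). Over the 14 tested members of the leukocyte list the median was -0.21, with 4 above 0 and 10 below, against 50.6% of all members above 0, and miR-223-3p was the highest. At an unadjusted p under 0.05 stood 1 of the 14 above 0 and 2 below, against 3.75% and 6.25% of all members. The 14 include both arms of miR-142, miR-150, miR-223 and miR-339 and are not independent.

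**Figure D3:**
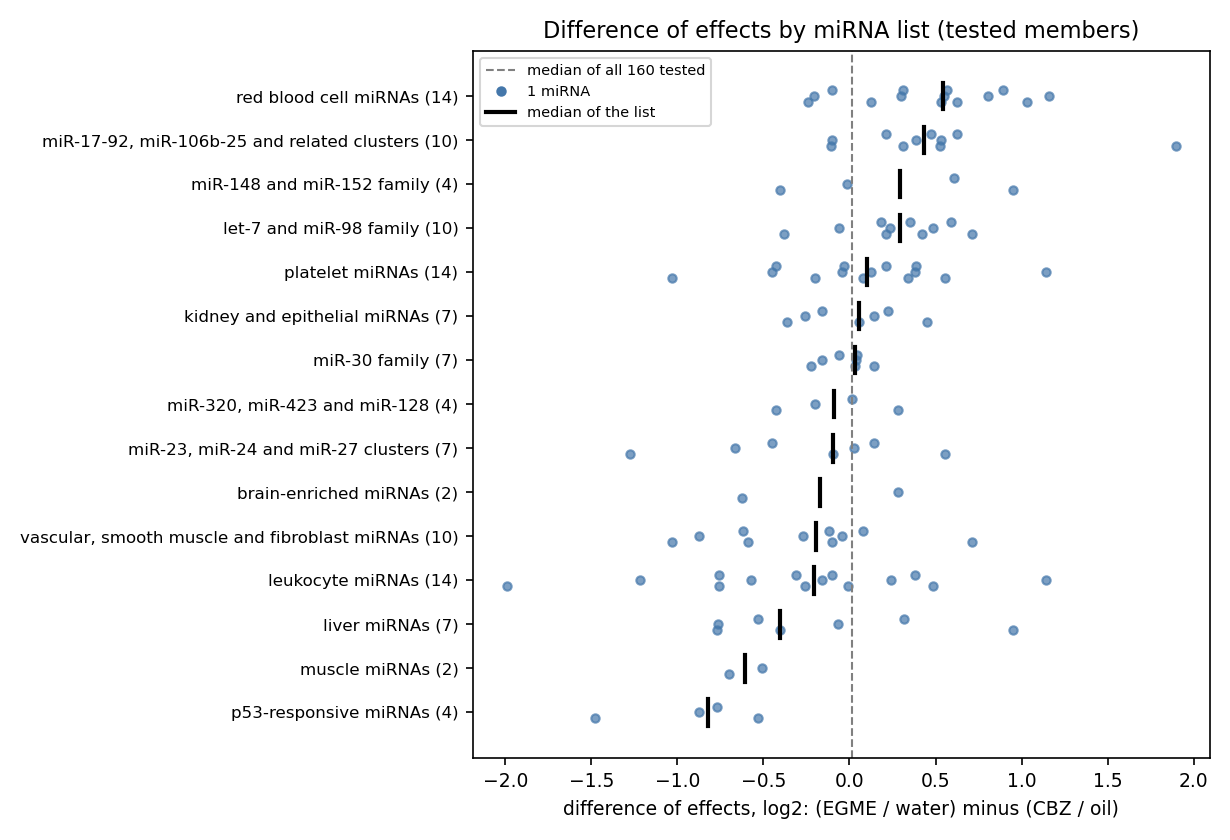
Difference of effects (log2, x axis) of each tested member of 15 miRNA lists, with a black bar at each list's median and a dashed line at the median of all members. The red blood cell list has a median of 0.54 and the p53-responsive list of -0.82, and members spread widely within most lists.

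miR-215, an epithelial miRNA that p53 induces in human cells, had 10245, 6829.6 and 9649.8 CPM (water), 2553, 3889 and 4241 (EGME), 21866, 6101 and 13588 (oil) and 20204, 17313 and 8932 (CBZ). All 3 EGME libraries lay below the lowest water library, whereas CBZ and oil libraries overlapped widely. Its EGME effect was -1.32 (SE 0.40, edgeR adjusted p = 0.0864), its CBZ effect 0.16, and the difference was -1.48 (SE 0.56, 95% interval -2.66 to -0.30, edgeR adjusted p = 0.339). miR-192-5p, which shares its seed, had 2446, 1494 and 2382 CPM (water), 1311, 1893 and 1406 (EGME), 2543, 1705 and 2392 (oil) and 3807, 2787 and 1672 (CBZ). Its libraries overlapped under both toxicants, and its difference was -0.77 (95% interval -1.66 to 0.13). miR-194-5p, encoded within 10 kb of miR-215, had effects of -0.98 and -0.45 and a difference of -0.53 (95% interval -1.77 to 0.70).

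miR-143-3p, a miRNA of smooth muscle whose processing p53 promotes in human cells, had 3965, 4544 and 3897 CPM (water), 3652, 4289 and 3071 (EGME), 2239, 1948 and 2935 (oil) and 4420.4, 2787 and 4401 (CBZ). Treated and vehicle libraries overlapped under each toxicant. Its difference was -0.87 (SE 0.34, 95% interval -1.59 to -0.16, edgeR adjusted p = 0.339), mostly from the CBZ effect of 0.70. With miR-215, miR-192-5p and miR-194-5p it made up the 4 tested of 14 members of the p53-responsive list. miR-34b and miR-34c were among those not tested. All 4 had a difference below 0 (79 of all 160 were), 2 of them at an unadjusted p under 0.05 (10 of all 160, 6.25%, on that side). miR-194-5p is encoded on chromosomes 1 and 13, on 13 within 10 kb of miR-215. miR-192-5p, on chromosome 1, shares the seed of miR-215. The 4 are thus not independent. The median of the list was -0.82. The median ranged from -1.01 to -0.71 when each library was left out.

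Both arms of miR-455, a miRNA of cartilage, had differences below 0. miR-455-5p had 92.0, 113 and 187 CPM (water), 29.7, 51.9 and 67.1 (EGME), 164, 76.9 and 171 (oil) and 176, 180.0 and 112 (CBZ), and its difference was -1.48 (SE 0.59, 95% interval -2.73 to -0.23, edgeR adjusted p = 0.339). miR-455-3p had 44.3, 44.4 and 61.0 CPM (water), 29.7, 3.99 and 8.75 (EGME), 65.6, 12.8 and 24.4 (oil) and 48.0, 46.7 and 46.9 (CBZ), and its difference was -2.23 (SE 0.85, 95% interval -4.04 to -0.42, edgeR adjusted p = 0.339). For each arm the EGME libraries lay below all water libraries and the CBZ libraries overlapped with oil, at levels close to the floor of 3 counts for the 3p arm. EGME libraries 2 and 3 and oil library 2 did not exceed it, so both sides of that difference rest on few counts. The arms come from 1 hairpin and are not independent.

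Among 22 hairpins with both arms tested, the arms had the same sign of the difference in 8, and the median gap between arms was 0.70. miR-27a-5p, for example, had 892, 416 and 261 CPM (water), 564, 212 and 426 (EGME), 295, 231 and 226 (oil) and 549, 393 and 446 (CBZ). The CBZ libraries lay above the oil libraries and EGME overlapped with water, for a difference of -1.28 (SE 0.57, 95% interval -2.49 to -0.07, edgeR adjusted p = 0.410), which was -0.57 without water library 1. Its other arm, miR-27a-3p, had 0.03 (95% interval -0.80 to 0.85).

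The remaining miRNAs among the 20 with the smallest p were less uniform. miR-149-5p had 10.2, 44.4 and 65.3 CPM (water), 17.0, 0 and 11.7 (EGME), 16.4, 38.5 and 18.3 (oil) and 32.0, 46.7 and 41.1 (CBZ). Its difference, -2.75 (95% interval -5.01 to -0.49), was the lowest of all members. Those levels lie around the floor, and EGME library 2 held no count. miR-378a-3p, encoded within a gene of a mitochondrial coactivator, had 459.8, 549 and 483 CPM (water), 369, 475 and 283 (EGME), 2042, 1564 and 2160.0 (oil) and 2650.1, 2433 and 1989 (CBZ). Libraries overlapped under both toxicants, and the difference was -0.70 (SE 0.33, 95% interval -1.41 to 0.01, edgeR adjusted p = 0.459), or -0.42 when counts of the opposite-strand miR-3557-5p were added. miR-425-5p overlapped between EGME and water at 523 to 720.4 and 483 to 739 CPM and was lower in CBZ (417 to 507) than in oil (623 to 1092), for a difference of 0.78 (SE 0.35, 95% interval 0.04 to 1.53, edgeR adjusted p = 0.410). miR-191a-5p, encoded within 10 kb of it, had a difference of -0.03.

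The differences of miR-151-3p and of miR-19a-3p, the latter of the miR-17-92 cluster, were smaller without oil library 2, where both stood highest among all libraries. miR-151-3p had 4060.0, 2557 and 3836 CPM (water), 5336, 3854 and 5591 (EGME), 1952, 6653 and 4906 (oil) and 3226, 2880.0 and 3486 (CBZ), and its difference of 0.99 (95% interval -0.02 to 2.00) became 0.57 without that library. miR-19a-3p had 68.1, 24.2 and 13.1 CPM (water), 50.9, 39.9 and 40.8 (EGME), 32.8, 179 and 54.9 (oil) and 26.7, 20.0 and 29.3 (CBZ), and its difference of 1.90 (95% interval -0.04 to 3.84) became 0.99 without oil library 2 and 2.94 without water library 1. Water library 3 and CBZ library 2 did not exceed the floor of 3 counts for miR-19a-3p. Among miRNAs within 10 kb of miR-19a-3p, miR-17-5p had a difference of 0.53, miR-19b-3p 0.39, miR-20a-5p 0.21 and miR-92a-3p -0.10.

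**Figure D4:**
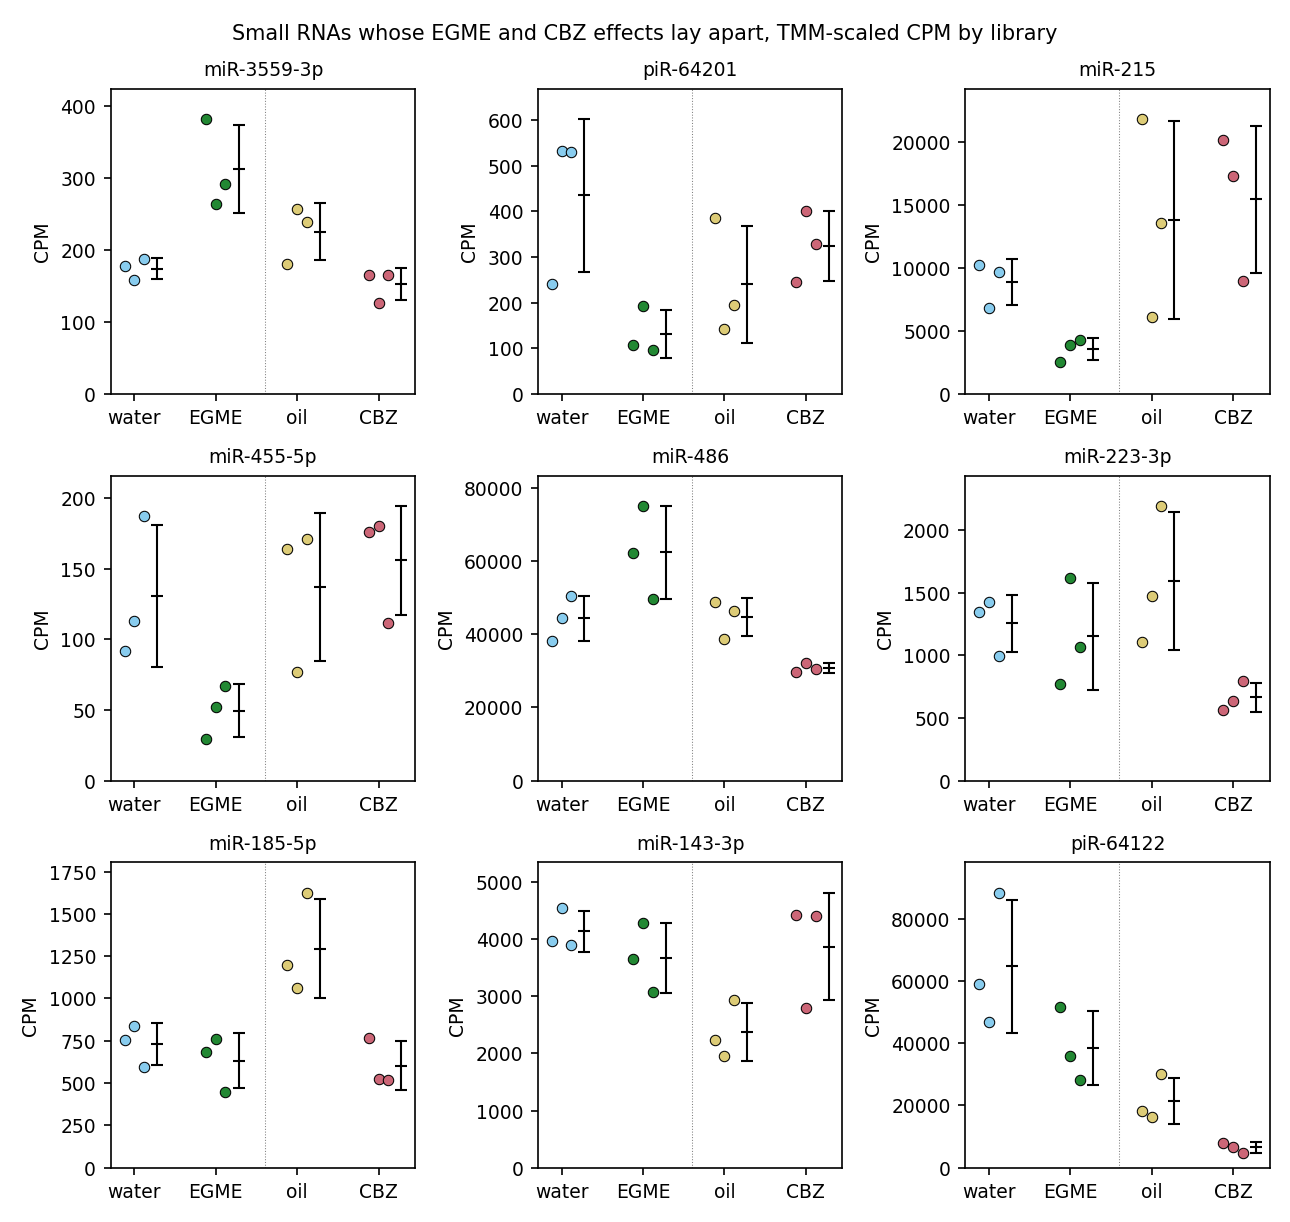
CPM (linear axis from 0) in each of the 12 libraries for 9 members with a difference named in the text. Each point is a library, bars give the mean and SD of each group, and the EGME libraries of miR-215 at 2553 to 4241 lie below all water libraries, while CBZ and oil libraries overlap.

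Among piRNAs, piR-64201 had the smallest p of all members, with 242, 533 and 531 CPM (water), 106, 192 and 96.2 (EGME), 385, 141 and 195 (oil) and 245, 400.0 and 329 (CBZ). The EGME libraries all lay below the water libraries, and CBZ and oil libraries overlapped. It fell by 1.73 under EGME (edgeR adjusted p = 0.0334), against a CBZ effect of 0.40. The difference was -2.13 (SE 0.56, 95% interval -3.32 to -0.95, edgeR adjusted p = 0.163), and with all RNA classes in the fit the lowest adjusted p of a member was 0.0507, also for piR-64201. The adjusted p of its difference was under 0.05 in 5 of 24 alternatives, among them DESeq2 at 0.0488, and ranged from 0.0109 to 0.417 over them.

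piR-64122, an abundant piRNA name, had 58962, 46813 and 88211 CPM (water), 51541, 35776 and 28158 (EGME), 18110.0, 16369 and 30008 (oil) and 7998, 6679.9 and 4783 (CBZ). The CBZ libraries all lay below the oil libraries, and EGME overlapped with water. It fell by 1.73 under CBZ (edgeR adjusted p = 0.0285), and the difference was 0.98 (SE 0.49, 95% interval -0.06 to 2.02, edgeR adjusted p = 0.507), or 0.64 without oil library 3. piR-72418 had 47.7, 24.2 and 118 CPM (water), 50.9, 67.9 and 14.6 (EGME), 41.0, 12.8 and 42.7 (oil) and 171, 86.7 and 112 (CBZ), with CBZ above oil in every library, and its difference was -2.34 (SE 0.90, 95% interval -4.26 to -0.43, edgeR adjusted p = 0.339). Its level in oil library 2 lay below that library's floor of 38.5 CPM. piR-64738 had 54.5, 40.4 and 52.3 CPM (water), 127, 51.9 and 72.9 (EGME), 65.6, 679 and 54.9 (oil) and 96.0, 73.3 and 41.1 (CBZ). Oil library 2 stood far above the other oil libraries. The difference, 2.54 (95% interval 0.28 to 4.80), was the highest of all members and was 0.45 without that library.

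The most abundant miRNA, miR-148a-3p, had 280174, 215388 and 221565 CPM (water), 197514, 282567 and 239015 (EGME), 91969, 319556 and 332457 (oil) and 140925, 115193 and 129739 (CBZ). The CBZ libraries lay between oil library 1, which stood below them, and the other oil libraries, which stood above, and the difference was 0.95 (95% interval -0.33 to 2.23) with all libraries and 1.38 without it. let-7i-5p, of the let-7 family of developmental timing miRNAs, came next among miRNAs, with 141545, 130925 and 114138 CPM (water), 117253, 107247 and 126449 (EGME), 52665, 60156 and 87181 (oil) and 63331, 44046 and 49306 (CBZ) and a difference of 0.21 (95% interval -0.71 to 1.14).

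The most abundant piRNA names varied widely between replicates. piR-63429 had 48737, 95323 and 90532 CPM (water), 48198, 124913 and 57935 (EGME), 405441, 61348 and 118495 (oil) and 195586, 221265 and 175243 (CBZ), and its difference of -0.04 (95% interval -1.71 to 1.64) ranged from -1.21 to 0.28 when each library was left out. piR-63455, whose counts matched those of piR-63454 within 20 percent or 3 counts in every library, had 41159, 102625 and 91842 CPM (water), 38124, 168899 and 59642 (EGME), 239826, 102430.0 and 159638 (oil) and 104714, 78873 and 56184 (CBZ). EGME library 2 was the highest of its group, and the difference of 1.24 (95% interval -0.31 to 2.79) was 0.32 without it. Over the 21 tested piRNAs the median difference was 0.33, with 13 above 0 (81 of all 160 were). The median was 0.15 without oil library 2, 0.64 without oil library 3, 0.05 with no scaling and 0.65 with all RNA classes in the fit.

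Several members lay to the same side of their vehicle under both toxicants, with intervals of the difference reaching up to 1.37 from 0 among those described next. miR-423-5p had 817, 420.0 and 732 CPM (water), 2069.9, 970.4 and 1627 (EGME), 435, 359 and 799 (oil) and 1482, 1373 and 1561 (CBZ). All treated libraries lay above their vehicle libraries. It rose by 1.44 under CBZ (edgeR adjusted p = 0.0300), its EGME effect was 1.24 (SE 0.33, edgeR adjusted p = 0.0557), which missed the threshold, and its difference was -0.20 (95% interval -1.18 to 0.78).

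miR-10a-5p, encoded in a HOX gene cluster, had 834, 1086 and 1833 CPM (water), 3279, 2975 and 2683 (EGME), 1025, 1423 and 1013 (oil) and 1754, 2340.0 and 1907 (CBZ). Treated libraries again lay above vehicle libraries in both experiments. It rose by 1.25 under EGME (edgeR adjusted p = 0.0334), its CBZ effect was 0.80 (SE 0.28, edgeR adjusted p = 0.121), and its difference was 0.45 (95% interval -0.37 to 1.28). miR-128-3p, enriched in neurons, had 8624, 3433 and 6593 CPM (water), 19859.5, 8709 and 20240.2 (EGME), 11146, 19061 and 17036 (oil) and 32137, 31939.8 and 37705 (CBZ), with effects of 1.39 and 1.11 and a difference of 0.28 (95% interval -0.81 to 1.37). miR-320-3p, whose hairpin bypasses Drosha, had 1703, 957 and 1946 CPM (water), 2969, 1637 and 3727 (EGME), 2461, 897 and 3087 (oil) and 3546, 4627 and 3456 (CBZ), with CBZ above oil in every library and EGME overlapping water. Its effects were 0.86 and 0.84, and its difference was 0.02 (95% interval -1.13 to 1.17). Neither effect of miR-128-3p passed the threshold, although no treated library overlapped its vehicle libraries.

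In the other direction, miR-93-5p, encoded with miR-106b and miR-25 in 1 cluster, had 1533, 1801 and 1359 CPM (water), 666, 1154 and 650.4 (EGME), 984, 474 and 1147 (oil) and 336, 400.0 and 387 (CBZ). It fell by 1.24 under CBZ (edgeR adjusted p = 0.0300), its EGME effect was -0.93 (SE 0.29, edgeR adjusted p = 0.0864), and its difference was 0.31 (95% interval -0.59 to 1.20). piR-65377 had 2813, 3558 and 2713 CPM (water), 1527, 1186 and 1158 (EGME), 1025, 2435 and 812 (oil) and 629, 587 and 593 (CBZ), fell by 1.22 under CBZ (edgeR adjusted p = 0.0488), and had an EGME effect of -1.23 (SE 0.32, edgeR adjusted p = 0.0557). Its difference was -0.01 (95% interval -1.01 to 0.98). All treated libraries of both lay below their vehicle libraries.

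**Figure D5:**
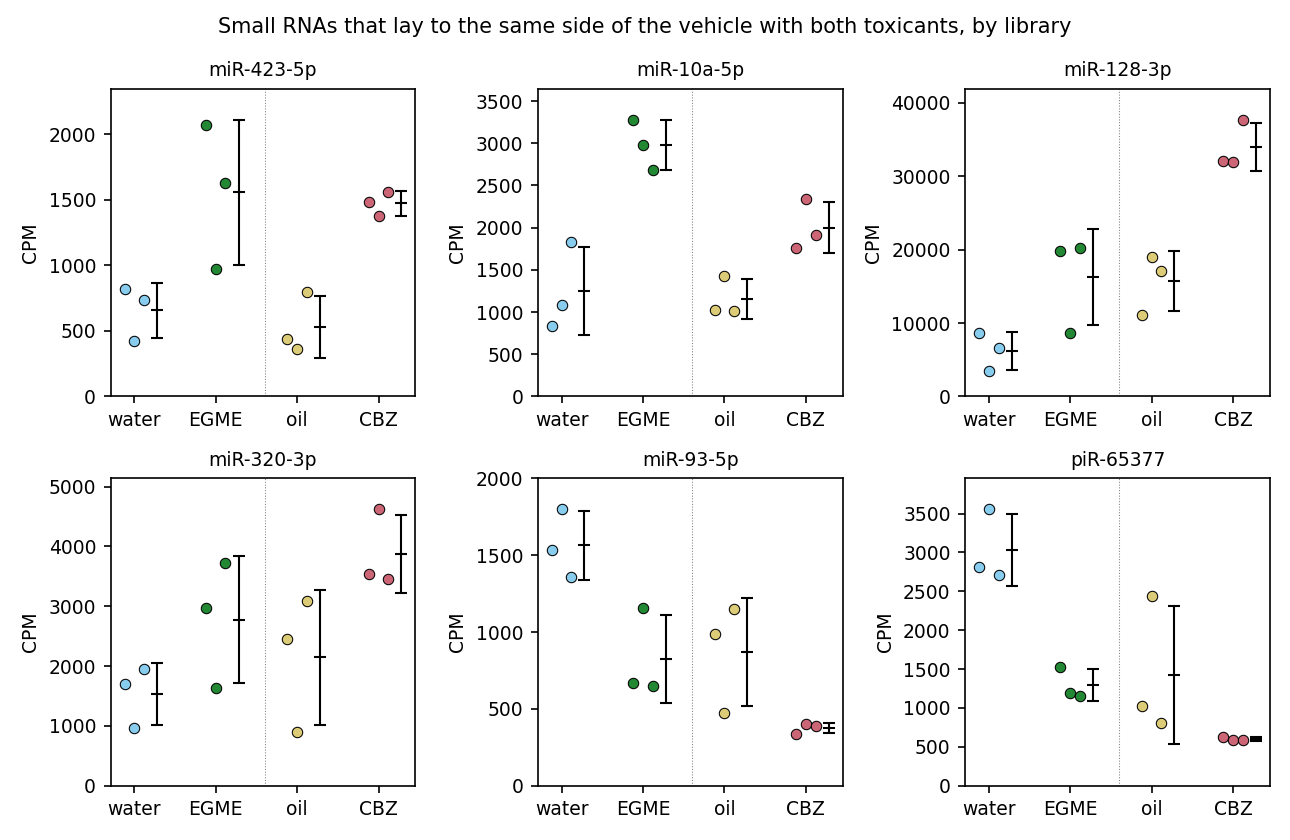
CPM (linear axis from 0) in each of the 12 libraries for 6 members whose effects had the same sign under both toxicants. Each point is a library, bars give the mean and SD of each group, and the treated libraries of miR-423-5p, at 970.4 to 2069.9 after EGME and 1373 to 1561 after CBZ, lie above all vehicle libraries.

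In the joint fit, 2 members (1.25%) passed the threshold for the EGME effect, miR-10a-5p and piR-64201, and 7 (4.38%) for the CBZ effect, of which 1 was higher and 6 lower. With no scaling beyond library totals, CBZ called 17 higher and 1 lower. Without CBZ library 2 or 3 no member was called under either toxicant. The CBZ count was 3 without CBZ library 1, 2 without water library 2 and 11 without EGME library 2. The EGME count rested on single libraries in the same way, at 0 without EGME library 1 or 3 or water library 2, 1 without water library 1 or 3, 3 without CBZ library 1, 4 without oil library 1 or 3, 7 without EGME library 2 and 13 without oil library 2.

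miRNAs that share a seed did not always share a side. The seed UGACCUA had both members below 0, and CCCUGAG, of miR-125a-5p, miR-125b-5p and miR-351-5p, had all 3 below 0, from -0.91 to -0.15. The let-7 seed GAGGUAG had 7 of 9 members above 0 with a median of 0.23. The seed AAAGUGC of miR-17-5p, miR-20a-5p, miR-93-5p and miR-106b-5p had 3 of 4 above 0 with a median of 0.26. Among the 124 tested miRNAs that matched 1 RefSeq sequence, 17 seeds were shared by 2 or more, covering 49 of them. The other tested miRNAs were not sorted by seed.

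All lists had 0 adjusted calls for the difference. Among blood and tissue lists, the median difference was 0.10 for platelet miRNAs (8 of 14 above 0), 0.06 for kidney and epithelial miRNAs (4 of 7), -0.17 for brain miRNAs (1 of 2), -0.19 for vascular miRNAs (2 of 10), -0.41 for liver miRNAs (2 of 7) and -0.60 for muscle miRNAs (0 of 2). Among families and clusters, it was 0.43 for miR-17-92 and its relatives (8 of 10), 0.29 for let-7 (8 of 10), 0.29 for miR-148 and miR-152 (2 of 4), 0.03 for miR-30 (4 of 7), -0.09 for miR-23, miR-24 and miR-27 (3 of 7) and -0.09 for miR-320, miR-423 and miR-128 (2 of 4). The last of these is neither a family nor a cluster, and was chosen with earlier results of these data known. Its median effects of 1.05 under EGME and 0.97 under CBZ are therefore no result about a family. Scaling moved these medians with that of all members: without scaling let-7 stood at -0.11 and the miR-17-92 clusters at -0.0074, while with all RNA classes leukocyte miRNAs stood at 0.089 and vascular miRNAs at 0.077. miR-122-5p, the main miRNA of hepatocytes, had 4070.2, 1131 and 1398 CPM (water), 3894, 5199 and 2120.3 (EGME), 1181, 2012 and 921 (oil) and 5641, 4200.0 and 1866 (CBZ). Its levels overlapped between EGME and water, and its difference of -0.76 (95% interval -2.24 to 0.72) became 0.13 without water library 1. Several of these medians rested on single libraries. Without water library 1 the liver median was 0.13, the brain median 0.42 and that of miR-320, miR-423 and miR-128 0.13. The platelet median was -0.05 without CBZ library 1 and 0.25 without EGME library 1, and the muscle median ranged from -1.12 to -0.32. Without oil library 3 the medians were -0.24 for kidney and epithelial miRNAs, -0.15 for miR-30, -0.57 for miR-23, miR-24 and miR-27, 0.11 for let-7 and -0.42 for leukocyte miRNAs, and without EGME library 1 that of leukocyte miRNAs was -0.08. Without oil library 1 the vascular median was -0.55 and that of let-7 0.47. Lists share members and are not independent of each other, and several hold both arms of 1 hairpin.

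The tables differed in the opposite-strand miRNAs they named, and the cause was not tested. The water and EGME table named 20 miRNAs, absent from the other table, whose mature sequence matches the reverse complement of a member's along the shorter of the pair. One of them, miR-3596a, held 98.6% to 100.6% of the counts of let-7a-5p in each library, and miR-3557-5p held 458% to 804% of those of miR-378a-3p. Levels of such miRNAs are therefore not comparable between the tables, while each effect is taken within 1 table. Adding these counts to the members, an alternative chosen after seeing the data, gave a difference of 0.19 for let-7a-5p (0.18 as listed). The let-7 median was then 0.29, miR-378a-3p stood at -0.42 (-0.70 as listed), and 0 members were called for the difference.

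The miRNAs of the testis and germ cells that were named in both tables were close to 0 in every library. They were 10, and none passed the filter on low counts. Others on that list were not named in both tables and were not examined. Summed over the 10, raw counts per library were 12 to 19 in water, 13 to 24 in EGME, 2 to 5 in oil and 4 to 12 in CBZ. The highest, miR-34c-5p of meiotic and later germ cells, had 13 counts over the water libraries, 22 over EGME, 4 over oil and 1 over CBZ, in libraries of unequal depth. A difference between the toxicants in these miRNAs was not detectable at this depth.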

How the data were processed

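Small RNA from exosomes of rat serum was sequenced on a MiSeq, and the authors deposited whole-number raw counts of reads per feature, with EGME and its vehicle in 1 table and CBZ and its vehicle in the other. The submitters' processing notes name edgeR. The aligner, the genome build and the handling of multiply matching reads were not given in the sources used here. The deposited tables of normalized values were not used.

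Libraries were grouped by their titles. The tables were joined by feature name, and mature miRNAs and piRNAs named in both were kept, so features named in 1 table were left out rather than set to 0. Counts were tested over all 12 libraries in edgeR 4.0.16 under R 4.3.3 (robust quasi-likelihood fit, TMM, filterByExpr at min.count 10), with 1 mean per group and the contrast (EGME - water) - (CBZ - oil). p-values are two-sided and Benjamini-Hochberg adjusted over the 160 features tested, with a threshold of 0.05. SEs were derived from the log2 change and the F value, and 95% intervals from the moderated degrees of freedom. Within groups, pairs of libraries differed by a chi-square per degree of freedom of at least 22.4, so no library was treated as a repeat of another. The procedure was also run on simulated counts, in which all groups shared 1 mean per feature and changes were placed in EGME alone. That setting lacked the differences between vehicles and the high piRNA share of oil library 1. No result given here rests on it.

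Named members are the 20 with the smallest p for the difference, the 6 miRNAs and 4 piRNAs of highest mean CPM, those past the threshold under either toxicant and members of the lists. The members and the lists were chosen with earlier results of these data known. Others were named after their values were seen, as relatives or other arms. Alternatives were other scalings, filters, DESeq2 1.42.0, limma 3.58.1, all RNA classes, miRNAs alone, merged near-identical piRNAs, replicate blocks and leaving out each library. Adding opposite-strand miRNAs to their partners was chosen after seeing the data.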

Additional observations from a re-analysis of the deposited data

Results flagged for a closer look

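miR-3559-3p was flagged because its treated and vehicle libraries did not overlap under either toxicant, in opposite directions. All 3 EGME libraries lay above the water libraries and all 3 CBZ libraries below the oil libraries, with a difference of effects of 1.39 on the log2 scale. That difference did not pass the threshold (edgeR adjusted p = 0.163), and it was 1.24 to 1.54 when each library was left out. miR-3559-3p was 1 of 160 members (0.625%) with this pattern and was picked for it. Whether that share exceeds chance was not tested. Opposite signs alone were common, with 23 members above 0 after EGME and below 0 after CBZ, and 30 the reverse.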

How the results depend on the processing

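3 libraries per group, the shallow oil and CBZ libraries and piRNA shares that varied between replicates limit the precision, and most intervals are wider than 1 log2 unit to either side. Scaling moved the median difference over all members from 0.01 to -0.42 with library totals alone, 0.17 with upper quartile scaling and 0.24 with all RNA classes in the fit. Members called for the difference were 0 in the main fit and 1 with no scaling beyond library totals, 1 with no filter, 2 with the DESeq2 Wald test, and 0 to 5 when each library was left out. Members called under EGME were 2 in the main fit, 6 with upper quartile scaling, 1 with no scaling, 9 with no filter, 18 with DESeq2, 1 with limma, 0 with all RNA classes, 5 and 6 with the replicate number as a block over all groups and within each experiment, and 0 to 13 when each library was left out. Under CBZ they were 7, with 18 for no scaling, 11 for no filter, 22 for DESeq2, 1 for all RNA classes, 11 with the block within each experiment, and 0 to 11 when each library was left out. The cause was not tested. The DESeq2 size factors, the filter of 10 counts in 3 libraries, miRNAs alone, near-identical piRNAs counted once and opposite-strand miRNAs added called 0 for the difference.

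Same-numbered libraries are tied by no label, and their deviations correlated at 0.21, 0.27 and 0.00 in the water and EGME groups and 0.11, 0.06 and 0.14 in the oil and CBZ groups, with 4 of 6 pairs closest to their own number. The replicate block called 0 members for the difference in either form.

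No difference that changed sign had an adjusted p under 0.05. piR-65377 stood at 0.086 with DESeq2 size factors, 0.14 with upper quartile scaling, 0.0049 with 10 counts in 3 libraries, 0.10 with the DESeq2 test, 0.27 with all RNA classes and 0.032 with opposite-strand miRNAs added. Upper quartile scaling and all RNA classes gave miR-26a-5p 0.051 and 0.11, piR-63429 0.081 and 0.14, miR-92a-3p 0.068 and 0.12 and miR-126a-3p 0.10 and 0.22, and all RNA classes gave miR-423-5p 0.014. With no scaling the values were let-7i-5p at -0.17, let-7f-5p at -0.045, miR-93-5p at -0.23, miR-27a-3p at -0.42, miR-320-3p at -0.41, miR-128-3p at -0.024, miR-30e-3p at -0.38 and let-7a-5p at -0.19. miR-27a-3p and miR-320-3p stood at -0.12 and -0.12 with no filter, -0.025 and -0.020 with 10 counts in 3 libraries, -0.059 and -0.18 with limma, -0.026 and -0.044 for miRNAs alone, -0.022 and -0.027 with near-identical piRNAs counted once, -0.034 and -0.20 with the block over all groups, -0.048 and -0.12 with the block within each experiment, and -0.0083 and -0.0098 with opposite-strand miRNAs added. miR-30e-3p stood at -0.096 with no filter, -0.017 for miRNAs alone and -0.000261 with near-identical piRNAs counted once. When each library was left out, the difference ranged from -0.034 to 0.43 for let-7a-5p, -0.011 to 0.37 for let-7i-5p, -1.25 to 0.13 for miR-122-5p, -0.21 to 0.073 for miR-126a-3p, -0.046 to 0.73 for miR-128-3p, -0.41 to 0.089 for miR-26a-5p, -0.28 to 0.27 for miR-27a-3p, -0.058 to 0.14 for miR-30e-3p, -0.36 to 0.34 for miR-320-3p, -0.64 to 0.086 for miR-423-5p, -0.27 to 0.085 for miR-92a-3p, -0.078 to 0.50 for miR-93-5p, -1.21 to 0.28 for piR-63429 and -0.70 to 0.30 for piR-65377.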

Other observations

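Features named in 1 table alone entered no comparison. They were 93 miRNAs and 1019 piRNAs in the table of the water and EGME libraries, the highest of them miR-3596a with a total of 8558 counts, and 25 miRNAs and 59 piRNAs in the table of the oil and CBZ libraries, where no feature had more than 5 counts in all.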
